A study of Mus musculus with 18 samples.

Results

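Wild-type cells of AB1, an embryonic stem (ES) cell line from mouse, that had been in 100 nM retinoic acid (RA) for 72 h were compared with the same cells after 8 h in RA, to tell the genes that move late from those that move early and those that move only for a time. The members are the 2 arrays titled as wild type, RA with leukemia inhibitory factor (LIF), 72 h, and the 3 arrays titled the same way at 8 h, 5 of the 18 arrays of the series. All 5 carried the same genotype, dose and LIF, a cytokine that holds mouse ES cells in self-renewal. Each array was hybridised with labelled cRNA from total RNA and gives 1 signal per probe set, scaled so that the trimmed mean of an array is 500 units.

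The series holds wild-type cells and cells with both copies of Cyp26a1 disrupted, called knockout here, of the same AB1 background as far as the labels go. In each genotype there were control cells without RA at 8 h (3 arrays), RA for 8 h (3 arrays) and RA for 72 h (2 arrays), all with LIF, and 1 control array without LIF. The 3 wild-type control arrays enter below to separate early from late genes. The 5 knockout arrays in RA serve as a repeat of the comparison on other samples, within the same fit. No 72 h control is among the labels, so longer RA and longer time in culture cannot be told apart in any 72 h value, and the labels do not say whether repeats were separate cultures. Tested against ES markers, all 5 arrays had the transcripts of that cell type: Pou5f1, the core pluripotency factor, read 11838 and 10090.1 units at 72 h and 13959.6, 14442 and 11856 at 8 h.

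RA enters cells, is carried by binding proteins and reaches nuclear receptors (RARs paired with RXRs) that sit on response elements, pairs of a short repeat with a fixed gap, and switch nearby genes on when RA binds. The cell limits its own exposure: Cyp26a1, an RA-degrading cytochrome P450, is itself an RA target. In mouse ES cells RA is known for driving exit from pluripotency toward neural or, with other cues, endoderm fates, and for switching on the Hox clusters, which encode position along the body axis.

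The promoters of a pair of genes that were up at 8 h and higher still at 72 h held the classical RA response element called DR5, the repeat with a gap of 5 bases. They are shown because both genes are parts of the RA pathway and both rose at each step. The windows are the 250 bases before the start of the gene in RefSeq's GRCm38.p6 record, written 5′ to 3′ on the gene's strand, with the element in capitals. The Rarb window is chr14:16575477-16575726, minus strand, and its element lies 53 to 37 bases before the start. The Cyp26a1 window is chr19:37697558-37697807, plus strand, with the element on the opposite strand, 32 to 16 bases before the start.
Rarb: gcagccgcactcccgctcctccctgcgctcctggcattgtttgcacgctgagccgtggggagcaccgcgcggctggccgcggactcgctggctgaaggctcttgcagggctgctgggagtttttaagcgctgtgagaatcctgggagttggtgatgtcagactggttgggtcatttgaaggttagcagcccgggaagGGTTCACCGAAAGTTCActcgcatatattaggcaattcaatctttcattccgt
Cyp26a1: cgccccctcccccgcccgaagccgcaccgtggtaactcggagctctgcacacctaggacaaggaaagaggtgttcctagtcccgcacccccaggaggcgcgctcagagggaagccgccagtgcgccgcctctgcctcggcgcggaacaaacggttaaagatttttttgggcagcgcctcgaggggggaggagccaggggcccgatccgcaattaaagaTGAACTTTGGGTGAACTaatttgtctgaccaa
DR5 was searched by name on both strands, with no overlap with another motif scored. Of 27025 RefSeq promoters of this length, 28 (0.104%) held it, and of the 9273 tested genes with a promoter entry 4 (0.0431%) did. Rarb and Cyp26a1 were 2 of the 18 continued rising genes with an entry (11.1%), while 0 of 975 late rising genes and 0 of 39 early and held rising genes held it. A match describes letters in a window and no more.

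Few genes were called at 8 h of RA and many from 8 to 72 h. Of 11388 genes tested, 103 (0.904%) passed at 8 h against control, 90 higher and 13 lower (0.114%), at a Benjamini-Hochberg adjusted p of 0.05 in limma's moderated test. From 8 to 72 h, 2540 genes (22.3%) passed, 1608 higher (14.1%) and 932 lower (8.18%), and 2534 of them had no overlap between the 2 and the 3 arrays. Over all genes tested, both 72 h arrays lay above all 8 h arrays for 3423 genes (30.1%) and below all of them for 2378 (20.9%). Among called genes the median log2 difference was 1.07 for rises and -0.63 for falls, 885 rose and 202 fell at least 2-fold, and 37 rose and 3 fell at least 8-fold. The median over all genes tested was 0.06. A gene was tested where at least 2 of the arrays reached 100 units, and 554 of the 11388 needed 72 h arrays, of wild type or knockout, to do so, which favours genes that read high at 72 h. These are written below as tested only through 72 h arrays. List counts below are over tested members, and for the lists most affected the count without such members is given. Every list count is to be set beside the shares of all genes tested, 14.1% higher and 8.18% lower. A knockout count from 8 to 72 h is to be set beside 12.7% higher and 6.52% lower. Differences here and below are on the log2 scale of floored signal, with the standard error after the sign ±. As the RNA is bulk, fewer cells of a type and less RNA per cell cannot be told apart. For 60 of the genes that rose, all 3 arrays at 8 h were at the floor of 50 units, and for 11 that fell, both 72 h arrays were, so those folds are lower bounds. The count was 1336 without 72 h array 1 and 1185 without 72 h array 2, when the lone array left is assumed to vary like the other groups, and at 8 h the count of 103 became 275 with the replicate number as a block.

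In knockout cells the same comparison called 2188 genes (19.2%), 1445 higher and 743 lower. Cyp26a1 itself read 52.6, 9.81 and 23.3 units in knockout control cells, 193, 216 and 193 at 8 h and 2872 and 3075 at 72 h. Signal of that probe set is thus present in the knockout, and whether the probe set lies in the deleted part is not given in the sources used here, so it checks no label. The LIF-induced gene Socs3 read 368, 4484 and 3792 units on the 3 wild-type control arrays, 3102, 3250.3 and 3527 at 8 h and 2628 and 3088 at 72 h. The first control array goes against its LIF label, and with the LIF labels exchanged within each genotype the 8 h count was 160. The 5 arrays had median signals of 59.2 to 75.6 units, 41.6% to 46.3% of their probe sets at the floor, and no batch is named in the labels.

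**Figure D1:**
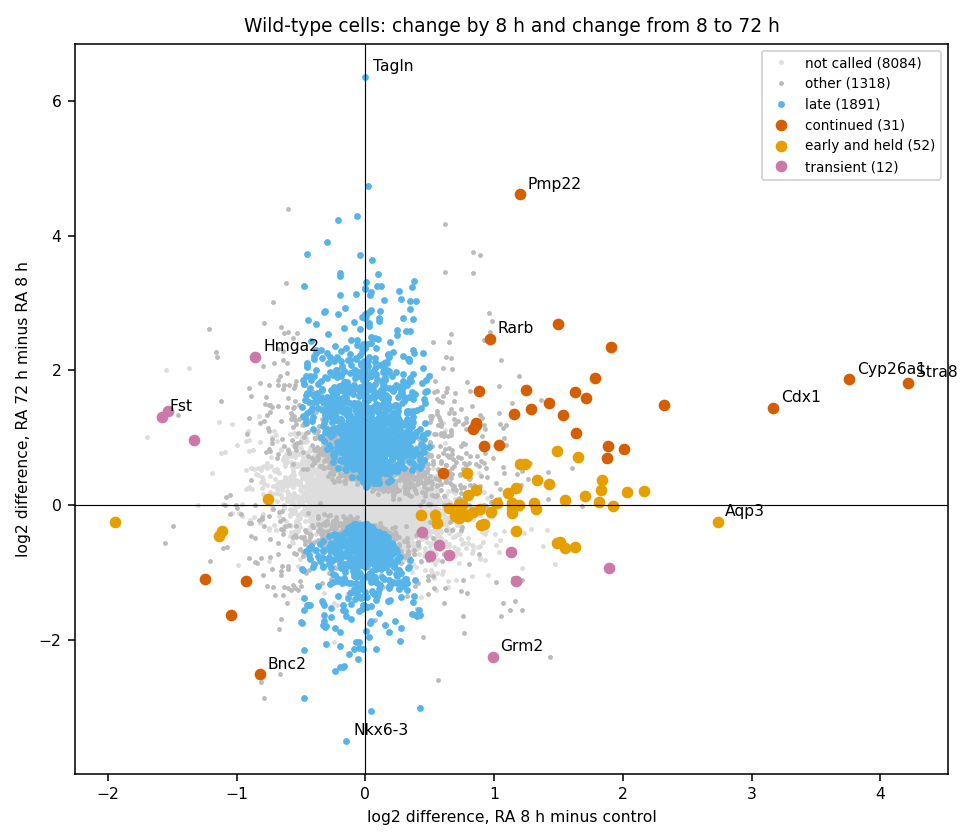
Log2 difference at 8 h of RA minus control (x axis) against that at 72 h minus 8 h (y axis) in wild-type cells, 1 point per gene tested, coloured by time class. Late genes (1891) spread up and down at an 8 h difference near 0, continued genes (31) lie in the upper right and lower left, early and held genes (52) lie along the horizontal line, and transient genes (12) lie in the upper left and lower right. Both axes use the same 3 arrays at 8 h, so a deviation of those arrays moves a point toward the upper left or the lower right, and no relation is read from the cloud.

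The calls of the 3 wild-type contrasts sort the genes in time. Late genes passed from 8 to 72 h and at 72 h against control, with no call at 8 h and a log2 difference there under 0.5. There were 1891 of them, 1190 higher and 701 lower. Continued genes passed at 8 h and again, the same way, from 8 to 72 h (27 higher, 4 lower). Early and held genes passed at 8 h and at 72 h against control with no call between (48 higher, 4 lower). Transient genes passed at 8 h and then in the opposite direction (8 up at 8 h, 4 down at 8 h). The remaining 1318 called genes fell in no class. Of the 90 genes higher at 8 h, 27 were called higher again by 72 h, 8 lower, and 55 not at all. Of the 13 lower at 8 h, 4 were called lower again, 4 higher and 5 not at all. Against control, 72 h called 2814 genes (24.7%), with 8.64% of genes tested called lower. These are counts of calls, not of tested classes, because the contrasts share arrays.

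The class sizes depend on arrays and settings. Without 72 h array 1 or 2, late genes numbered 960 or 862. With the replicate block, continued, held and transient genes numbered 79, 130 and 47, and with the wild-type arrays alone they numbered 13, 26 and 3. Without 8 h array 3, continued genes numbered 19 and held genes 29. The means of the knockout arrays did not enter the contrasts of the sort. Those arrays did share its fit, its estimate of spread and its filter, so the knockout calls are not fully separate from it. In the knockout, 787 of the 1190 late rising genes were called higher from 8 to 72 h and 431 of the 701 late falling genes lower, against 12.7% and 6.52% of all genes tested.

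**Figure D2:**
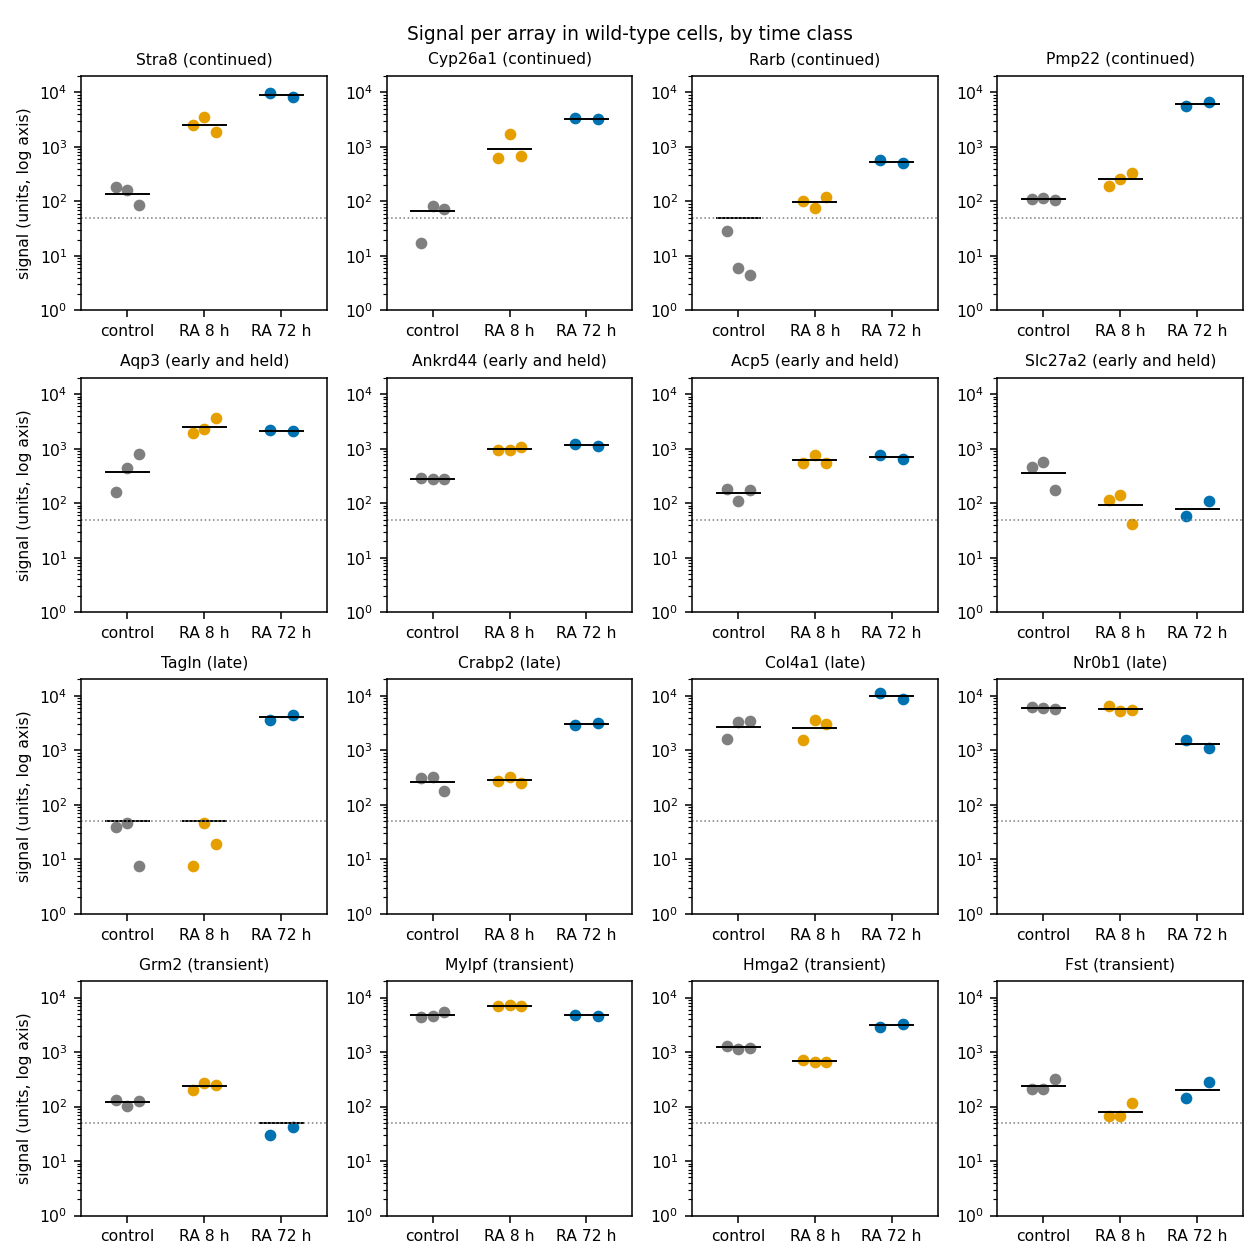
Signal of each wild-type array (points, log axis) in control, 8 h RA and 72 h RA, for 4 genes of each time class, with black bars at the mean of log2 values floored at 50 units (dotted line). Stra8 and Pmp22 step up at both times, Ankrd44 stays at 946 to 1209 units from 8 h on, Tagln and Crabp2 move only at 72 h, and Hmga2 dips at 8 h and stands above control at 72 h.

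Continued rises were led by the textbook RA targets. Stra8, which RA induces ahead of meiosis in germ cells, read 184, 161 and 87.3 units in control, 2516, 3549 and 1861 at 8 h and 9751 and 8289 at 72 h. The 3 groups were apart on every array. Its log2 difference was 4.22 ± 0.27 (adjusted p = 6.80e-07) by 8 h and 1.82 ± 0.30 (adjusted p = 5.73e-04) from 8 to 72 h, so 69.9% of the log2 change at 72 h was present at 8 h. Cyp26a1 read 17.5, 84.2 and 71.9 units in control, 637, 1695 and 691 at 8 h and 3402 and 3211 at 72 h, again with no overlap. It rose by 3.76 by 8 h and by a further 1.87 ± 0.32 (adjusted p = 7.66e-04). Rarb, the RAR that RA itself induces through the element shown above, was at the floor in control and read 102, 76.8 and 119 units at 8 h and 566 and 514 at 72 h. Its later step was the larger, 2.46 ± 0.21 (adjusted p = 1.95e-06), and 28.2% of the 72 h change, floored in control, was there at 8 h.

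Others of this class ran from retinoid handling to membrane proteins. Dhrs3, which reduces retinaldehyde and so lowers RA formation, read 13.7, 68.2 and 30.8 units in control, 142, 238 and 206 at 8 h and 786 and 639 at 72 h, a step of 1.89 ± 0.27 (adjusted p = 1.51e-04) after 8 h. Nrip1, a corepressor that binds liganded receptors, had its main step early and rose by 0.87 ± 0.19 (adjusted p = 0.00365) afterwards, a call that was lost without 72 h array 2 (adjusted p = 0.0588). Hoxb4 read 408 and 416 units at 72 h and 116, 206 and 125 at 8 h, the 1 Hox gene of 19 tested that was also called at 8 h. Cdx1, a caudal factor that regulates Hox genes, read 42.2, 38.5 and 105 units in control, 639, 337 and 880.4 at 8 h and 2175 and 1122 at 72 h. Its later step of 1.44 ± 0.45 (adjusted p = 0.0323) passed narrowly and was lost without 72 h array 1, 8 h array 1 or 8 h array 2 (adjusted p = 0.295, 0.053 and 0.118). The largest later step of the class was that of Pmp22, a growth-arrest gene and myelin protein, with 5612 and 6810.0 units at 72 h and 194, 254 and 330.2 at 8 h. It rose by 4.61 ± 0.24 (adjusted p = 3.67e-08) from 8 to 72 h, a 24.4-fold change, after 1.20 by 8 h. Adgra2, an adhesion receptor, and Pdgfrb, a platelet-derived growth factor receptor, rose by 2.35 and 1.68 after 8 h. Of the 27 rising genes 25 were also called higher from 8 to 72 h in the knockout arrays (12.7% of all genes tested), and 22 at 8 h against knockout control (0.861% of all genes tested).

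Continued falls were 4. Bnc2, a zinc finger protein, read 1301, 982 and 986 units in control, 610.1, 586 and 640.2 at 8 h and 96.9 and 119.5 at 72 h. The 3 groups were apart, with a step of -2.51 ± 0.21 (adjusted p = 1.34e-06) after 8 h. Slc7a3, a cationic amino acid carrier, read 1671 and 1914 units at 72 h and 4467, 3460.2 and 3790.0 at 8 h (-1.12 ± 0.15, adjusted p = 8.44e-05), and Ddx58, a sensor of viral RNA, fell, with a log2 difference of -1.63. All 4 were called lower in the knockout arrays from 8 to 72 h.

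Early and held genes were called by 8 h and not again from 8 to 72 h. Aqp3, a water and glycerol channel, read 160.3, 434 and 782 units in control, 1943, 2272 and 3645 at 8 h and 2188 and 2066 at 72 h. The 8 h and 72 h arrays overlapped and both lay above control. It rose by 2.74 ± 0.61 (adjusted p = 0.0491) by 8 h and differed by -0.25 ± 0.68 (adjusted p = 0.835) after it. Ankrd44 read 284, 274 and 278 units in control, 949.7, 946 and 1084 at 8 h and 1209 and 1115 at 72 h, a difference of 0.23 ± 0.13 (adjusted p = 0.242) after 8 h. Acp5, a phosphatase of osteoclasts, read 782 and 644 units at 72 h and 552, 776 and 547 at 8 h, overlapping, with a difference of 0.20. Tle6, an oocyte protein, read 885 and 758 units at 72 h and 902, 743 and 839 at 8 h, with a difference of -0.01. Kit, the stem cell factor receptor, and Pim1, a kinase gene that LIF induces, were also held. The 8 h call of Pim1 is against controls of which the first, by Socs3, goes against its LIF label. Kit read 974 and 962 units at 72 h and 1240.5, 976 and 744 at 8 h. Among the 48 rising genes the median difference was 1.16 by 8 h and -0.01 after, and for 17 of them the 8 h and 72 h arrays did not overlap, Ankrd44 among them. Over all genes tested, the 72 h arrays lay above all 8 h arrays for 30.1% and below them for 20.9%, so 17 of 48 is no excess. A difference that missed the threshold after 8 h does not show that a level stayed the same. In the knockout, 34 of the 48 were called higher at 8 h, where 109 of all genes tested were called (0.957%), 0.861% higher and 0.0966% lower. Of the 4 held falls, Slc27a2, a fatty acid transporter, read 462, 579.9 and 178 units in control, 116, 143 and 42.0 at 8 h and 58.3 and 108 at 72 h, and Ndrg1, a stress-induced gene, fell by 8 h with a log2 difference of -1.11 ± 0.22 (adjusted p = 0.0208).

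Few genes turned back. Grm2, a metabotropic glutamate receptor, read 132, 101 and 129 units in control, 198, 275 and 246 at 8 h and, below the floor, 29.6 and 41.4 at 72 h. It rose by 0.99 ± 0.21 (adjusted p = 0.0404) and then fell, with a log2 difference of -2.25 that is a bound since both 72 h arrays were floored (adjusted p = 1.31e-05), to a level under control. Mpc1, a carrier of pyruvate into mitochondria, read 3489, 3206 and 3075 units in control, 4491, 4315 and 5049 at 8 h and 2717 and 2737 at 72 h. Its difference after 8 h was -0.76 ± 0.10 (adjusted p = 1.16e-04). Smpd4, a sphingomyelinase, and Mylpf, a muscle myosin light chain, fell, with log2 differences of -0.74 and -0.59. Gys1, the muscle glycogen synthase, read 826, 759 and 1126 units in control, 2120.0, 1963 and 1794 at 8 h and 1233 and 1197 at 72 h, and its difference of -0.69 after 8 h was lost without 1 array at a time for 72 h arrays 1 and 2 and 8 h arrays 1 and 2 (adjusted p between 0.0583 and 0.141). Hmga2, a chromatin protein of early embryos, went the other way round, with 1289, 1156 and 1205 units in control, 706, 666 and 648 at 8 h and 2916 and 3269.5 at 72 h. All 3 groups were apart. It fell by 8 h, with a log2 difference of -0.85 ± 0.15 (adjusted p = 0.0112), and then rose by 2.20 ± 0.17 (adjusted p = 8.86e-07). Fst, the activin inhibitor follistatin, read 208, 210.5 and 326 units in control, 68.2, 67.3 and 115 at 8 h and 142 and 286 at 72 h, and its later rise of 1.32 ± 0.32 (adjusted p = 0.0088) was lost without 72 h array 2 (adjusted p = 0.193).

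In knockout arrays 8 of the 12 genes had the same pair of signs, 6 were called the same way from 8 to 72 h, 4 at 8 h, and 3 at both. Of all genes tested, the knockout arrays called 12.7% higher and 6.52% lower from 8 to 72 h, and 0.861% and 0.0966% at 8 h. The matching of signs has no such share here. For Fst the knockout read 49.2 and 50.6 units at 72 h and 91.1, 65.6 and 64.5 at 8 h, with no later rise called. The number of transient genes was between 5 and 22 when any 1 wild-type array was left out, and 22 with the floor at 100 units. A deviation of the 8 h arrays alone moves both contrasts in opposite directions.

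Late rises included the largest change from 8 to 72 h of any gene tested. Tagln, the actin-binding protein transgelin, read 3654 and 4552 units at 72 h and 7.70, 47.2 and 18.8 at 8 h, where all 3 arrays were at the floor. It rose by at least 6.35 ± 0.24 on the log2 scale (adjusted p = 6.66e-10), or at least 81.6-fold. Gas1, a growth-arrest gene and hedgehog co-receptor, read 1500.3 and 2873 units at 72 h and 86.0, 52.9 and 103 at 8 h (4.74 ± 0.40, adjusted p = 1.54e-06). Wls, which escorts Wnt proteins out of the cell, read 772 and 902 units at 72 h and 63.7, 53.9 and 49.4 at 8 h. The groups were apart, with 3.91 ± 0.32 (adjusted p = 1.20e-06). Slc25a24, a mitochondrial carrier, Bhmt, an enzyme of methionine synthesis, and Zfp703, a transcriptional corepressor, rose by 3.72, 3.76 and 3.72. The last of these is in no class, since its 8 h difference of 0.89 was over 0.5 with no call, and so is Bhmt at 0.84.

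Late falls were smaller. Nkx6-3, a homeobox gene, read 40.9 and 41.0 units at 72 h and 515, 324 and 1062 at 8 h, with both 72 h arrays at the floor, so its log2 difference of -3.49 (adjusted p = 1.68e-04) is a bound and the fall was at least that large. Liph, a lipase, read 107 and 109 units at 72 h and 961, 1146 and 649 at 8 h (-3.05 ± 0.25, adjusted p = 1.16e-06). Nphs1, the podocyte protein nephrin, read 103 and 136 units at 72 h and 909, 906 and 1049 at 8 h (-3.01 ± 0.24, adjusted p = 9.59e-07). These 3 were the falls of 8-fold or more. Chrna9, a nicotinic receptor subunit, Rasgrp2, an activator of Rap, and Tgfb1, a growth factor, fell, with log2 differences of -2.85, -2.45 and -2.29, with the Chrna9 value taken from 1 floored array of the 2 at 72 h. Aplp1, a relative of the amyloid precursor, read 1092 and 621 units at 72 h and 5529, 4761 and 4659 at 8 h (-2.59 ± 0.23, adjusted p = 2.49e-06).

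**Figure D3:**
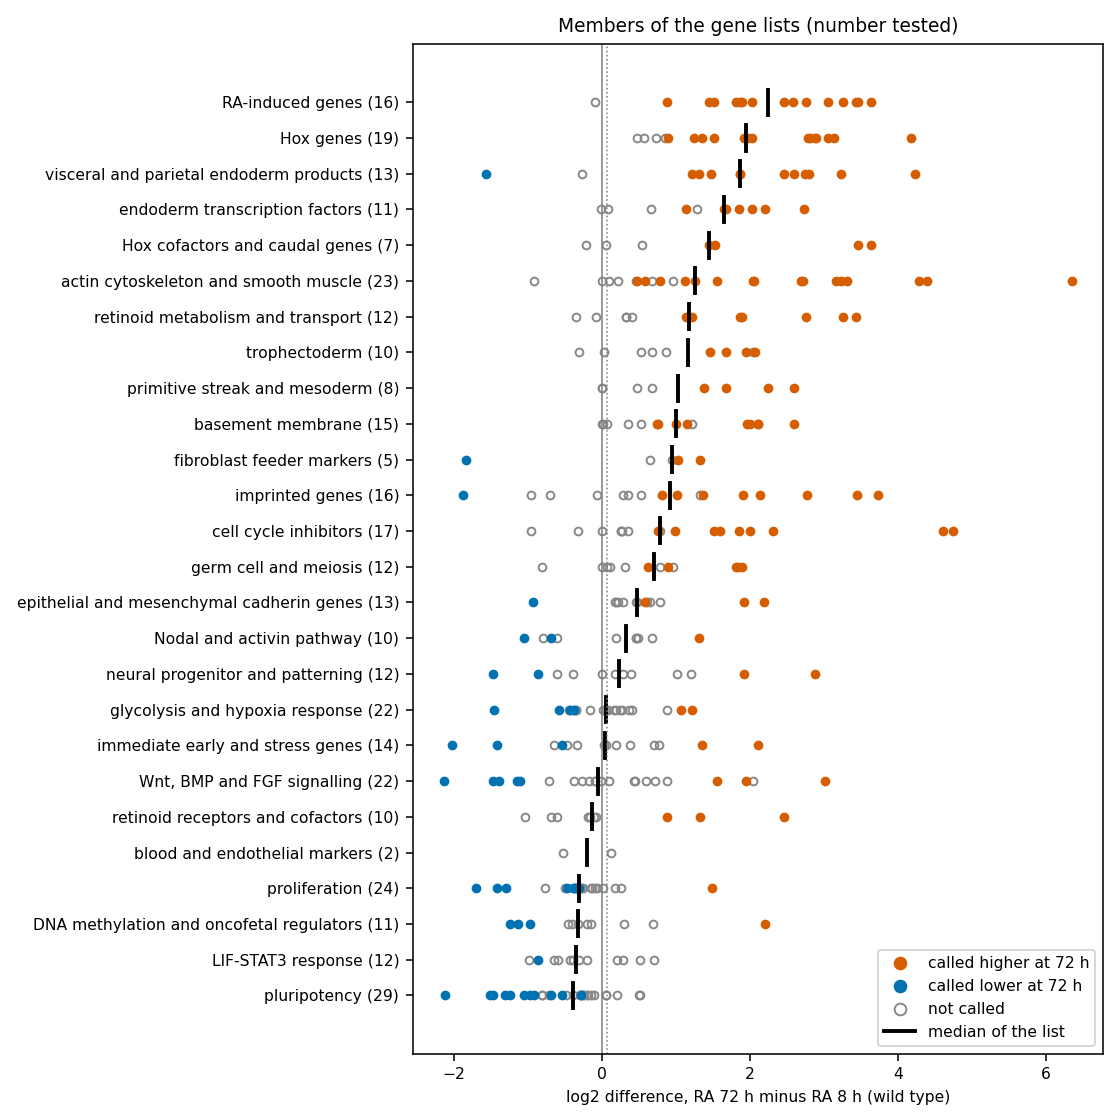
Log2 difference from 8 to 72 h of RA in wild-type cells (x axis) for every tested member of 26 gene lists (rows, with the number tested), coloured by call, with a black bar at the list's median. The dotted line marks the median of all genes tested, 0.06. RA-induced genes (median 2.24) and Hox genes (1.95) stand furthest to the right and pluripotency genes (-0.39) furthest to the left.

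Most tested genes that RA is known to induce rose after 8 h. Of 17 with a probe set 16 were tested, and 15 were called higher and 0 lower, set against 14.1% and 8.18% of all genes tested, with a median of 2.24 against 0.06 over all genes tested. Without 4 members that were tested only through 72 h arrays, 11 of 12 rose. Of all 16, 7 had been called at 8 h and 6 were late. Crabp2, which carries RA into the nucleus, read 2944 and 3125 units at 72 h and 275, 322 and 251 at 8 h. The groups were far apart, with 3.43 ± 0.25 (adjusted p = 5.52e-07), and by 8 h its difference was 0.10. Cyp26b1, the sister enzyme of Cyp26a1, read 465 and 556 units at 72 h and 14.5, 11.4 and 60.8 at 8 h (3.25 ± 0.20, adjusted p = 1.44e-07), and Stra6, the membrane receptor for the retinol carrier, read 612 and 457 units at 72 h and 138, 31.9 and 69.2 at 8 h (2.76 ± 0.37, adjusted p = 1.08e-04). Tgm2, a transglutaminase, read 1584 and 1694 units at 72 h and 233, 309.8 and 285 at 8 h. Its rise of 2.58 ± 0.64 (adjusted p = 0.00931) was lost without either 72 h array (adjusted p = 0.0567 without array 1 and 0.0702 without array 2). Dusp6, a phosphatase of the ERK pathway, was the 1 not called, at -0.10. Without 72 h array 1 or 2, 13 members were called in each case, and 14 of the 16 rose in the knockout.

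Retinoid carriers and enzymes rose in part, and receptors mostly did not. Of 17 genes of retinoid metabolism and transport with a probe set 12 were tested, of which 7 rose and 0 fell (median 1.18), 1 with the replicate block. Rbp4, the retinol carrier of plasma, read 295 and 340.5 units at 72 h and 150.0, 115 and 146 at 8 h (1.22 ± 0.20, adjusted p = 4.33e-04). Fabp5, which can bring RA to other receptors, read 5308 and 6288 units at 72 h and 2960.5, 2690.0 and 2259 at 8 h (1.14 ± 0.19, adjusted p = 5.12e-04). The retinol dehydrogenases Rdh10, Rdh11 and Rdh14 were not called, with differences of 0.40, -0.08 and 0.33. Of 10 receptors and cofactors, 3 rose (Rarb, Nrip1 and the coactivator Ncoa2 at 1.33 ± 0.22 (adjusted p = 4.80e-04)) and 0 fell, with a median of -0.14. Rara read 228 and 206 units at 72 h and 374, 416 and 574 at 8 h, apart on every array, yet its difference of -1.05 ± 0.37 (adjusted p = 0.0521) did not pass. With the replicate block Rara and Rarg were called lower, and 1 member was without 72 h array 1.

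Hox genes with a measurable signal came on late. Of 32 with a probe set, 13 were not tested, 6 of them at the floor on both 72 h arrays. Of the 19 tested, 15 were called higher and 0 lower from 8 to 72 h (median 1.95), and 1 had been called at 8 h (median difference 0.00). Since 14 of the 19 entered the test only through 72 h arrays, where they read high, that count describes the genes that were on and does not support a rise of the family. Of the other 5, 3 rose and 0 fell, with a median of 0.89. Hoxb2 read 1212 and 1584 units at 72 h and 27.5, 182 and 24.2 at 8 h. Array 2 at 8 h stood above the others, and the rise was 4.17 ± 0.46 (adjusted p = 1.81e-05). Hoxb1, the marker of the fourth hindbrain segment, read 392 and 653 units at 72 h and 29.2, 89.5 and 26.3 at 8 h (3.06 ± 0.29, adjusted p = 4.50e-06). In the a cluster Hoxa7 read 369.9 and 320.0 units at 72 h with all 8 h arrays at the floor, a rise of at least 2.78, and Hoxa10 read 197 and 236 units at 72 h and 45.5, 66.6 and 43.8 at 8 h (1.97 ± 0.22, adjusted p = 1.81e-05). In the c cluster Hoxc4 and Hoxc5 rose by at least 2.03 and 1.92 from the floor. Hoxa9, Hoxa11, Hoxc6 and Hoxd13 were not called, at 0.73, 0.56, 0.86 and 0.48. For Hoxa9 this depends on the probe set. With the mean of its probe sets it was called higher in limma, at 2.30 (adjusted p = 3.51e-05), and with the floor at 100 units at 0.72 (adjusted p = 0.0127). The rises numbered 12 or 11 without 72 h array 1 or 2, and in the knockout 14 of 19 rose.

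**Figure D4:**
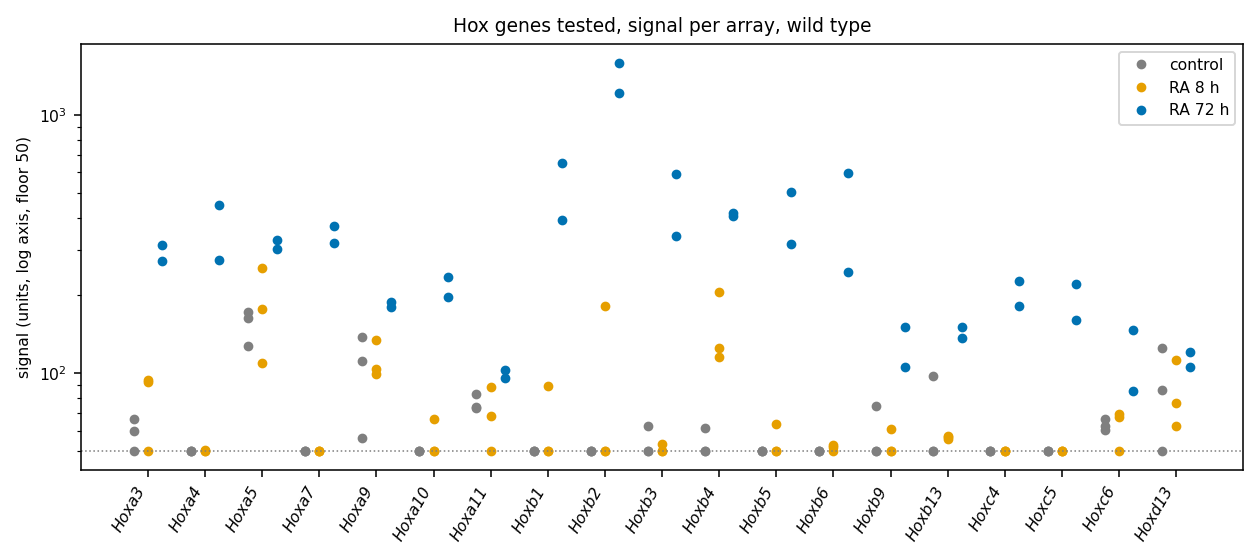
Signal per array (log axis, values under 50 units drawn at 50) of the 19 Hox genes tested in wild-type control, 8 h RA and 72 h RA, ordered along the a, b, c and d clusters. The 72 h points (Hoxb2, 1212 and 1584 units) stand above the 8 h points for most genes. Hoxb4 is the 1 whose 8 h arrays were called above control.

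Cofactors of Hox proteins rose in part. Of 9 cofactors and caudal genes with a probe set 7 were tested, and 4 rose and 0 fell (median 1.44). Without Meis1, which was tested only through 72 h arrays, 3 of 6 rose. Meis1, a homeobox partner of Hox proteins, read 728 and 921 units at 72 h and 45.0, 62.9 and 91.0 at 8 h (3.64 ± 0.27, adjusted p = 5.67e-07). Meis2 read 1069 and 989 units at 72 h and 75.7, 116 and 92.5 at 8 h (3.46 ± 0.35, adjusted p = 7.26e-06), and Pbx3 rose by 1.52. Pbx2 and Pknox1 were not called, at 0.06 and -0.22.

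Pluripotency genes fell in part. Of 29 tested, 11 fell and 0 rose from 8 to 72 h, with a median of -0.39. Nr0b1, a nuclear receptor of the naive network, read 1563 and 1109 units at 72 h and 6386, 5340.1 and 5509 at 8 h. The groups were apart, with -2.12 ± 0.21 (adjusted p = 6.56e-06). Utf1, a chromatin factor of ES cells, read 3343 and 2977 units at 72 h and 8072, 8775 and 10291 at 8 h (-1.51 ± 0.18, adjusted p = 3.95e-05), and Fgf4, a growth factor under Oct4 and Sox2 control, 1071 and 975 units at 72 h and 3446, 3074 and 2183 at 8 h (-1.48 ± 0.18, adjusted p = 4.24e-05). Lin28a, which blocks let-7 maturation, Gdf3 and Tcl1 fell, with log2 differences of -1.25, -1.05 and -1.31. Dnmt3l, a partner of the de novo methyltransferases, fell, with a log2 difference of -0.97 ± 0.20 (adjusted p = 0.00232).

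The core factors did not pass. Nanog read 8299 and 7936 units at 72 h and 8078, 6636 and 8801 at 8 h, overlapping, with 0.06 ± 0.22 (adjusted p = 0.876). Sox2 read 7759 and 7001 units at 72 h and 9714, 7144 and 8472 at 8 h (-0.18 ± 0.14, adjusted p = 0.363), and Pou5f1 differed by -0.29 ± 0.17 (adjusted p = 0.245), which is past the threshold with the replicate block. Klf4 and Tbx3, naive factors downstream of LIF, differed by 0.51 and 0.50 without a call, and Tbx3 was called higher with the replicate block. Without 72 h array 1 or 2 the falls numbered 8 each, with the replicate block 16 with 1 rise, and in the knockout 8 fell. With the replicate block 1 of 12 LIF-STAT3 response genes rose and 3 fell. In the fit without it 0 rose and 1 fell, Gbx2 at -0.87 ± 0.24 (adjusted p = 0.0159), a call lost without either 72 h array or without 8 h array 1 or 3 (adjusted p = 0.0563 and 0.0513 for the last pair, 0.102 without array 1 and 0.0775 without array 2).

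Endoderm regulators rose in part from 8 to 72 h. Of 13 endoderm transcription factors with a probe set 11 were tested, and 7 rose and 0 fell (median 1.65). Without Foxa1 and Foxa2, which were tested only through 72 h arrays, 5 of 9 rose. At 8 h 0 had been called, though the list's median against control was 0.36, with 0.00 over all genes tested. Of the 7 rises, 5 were late. Gata4, which drives primitive endoderm, read 452 and 394 units at 72 h and 77.2, 148 and 139 at 8 h (1.85 ± 0.38, adjusted p = 0.00244). Foxa2 read 312 and 248 units at 72 h and 49.4, 89.0 and 28.1 at 8 h (2.20 ± 0.26, adjusted p = 3.53e-05), and Foxa1 rose by 2.02 ± 0.26 (adjusted p = 6.62e-05). Sox17 read 670.3 and 858 units at 72 h and 38.2, 287 and 104 at 8 h, where array 2 stood above the other two. Its rise of 2.73 ± 0.63 (adjusted p = 0.00615) was lost without 72 h array 2 (adjusted p = 0.0648). Gata6 read 1297 and 932 units at 72 h and 306, 475 and 852 at 8 h, and its call at 1.14 ± 0.37 (adjusted p = 0.0386) was lost without either 72 h array and without 8 h array 1 or 2 (adjusted p between 0.0817 and 0.251). Hnf4a and Hhex were not called, at 0.08 and -0.01. The rises numbered 5 without 72 h array 1 and 4 without 72 h array 2, 9 with the block, and 7 in the knockout.

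Basement membrane genes rose over the same interval. Of 15 tested, 9 rose and 0 fell (median 1.0). Col4a1, a chain of type IV collagen, read 11339 and 8864 units at 72 h and 1576, 3583 and 2993 at 8 h (1.97 ± 0.33, adjusted p = 6.72e-04). Its partner chain Col4a2 read 3461 and 2917 units at 72 h and 465, 1007 and 851 at 8 h (2.11 ± 0.38, adjusted p = 0.00102). For both chains the groups were apart. Serpinh1, the collagen chaperone, read 6736 and 6839.9 units at 72 h and 866, 1034 and 1579 at 8 h, the largest rise of the list at 2.60 ± 0.30 (adjusted p = 2.89e-05). Lamb1, a laminin chain, rose by 2.00 ± 0.32 (adjusted p = 3.94e-04), and Lama1, its partner, read 3814 and 5548 units at 72 h and 1596, 2567 and 1894 at 8 h without a call (1.22 ± 0.74, adjusted p = 0.267). At the same difference Lama1 was called with the LIF labels exchanged (adjusted p = 4.04e-04) and with only the arrays of the 2 groups (adjusted p = 0.00741). The prolyl hydroxylase gene P4ha2 rose by 2.11, and the nidogens Nid1 and Nid2 differed by 0.01 and 0.06 without a call. Without 72 h array 1 or 2, 6 or 7 rose, and 7 rose in the knockout.

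Of 22 products of visceral and parietal endoderm with a probe set 13 were tested, and 11 of these rose and 1 fell (median 1.87). The 9 not tested include classic visceral endoderm products that read low at 72 h: Afp, alpha-fetoprotein, at 5.95 and 15.6 units, Apoa1, an apolipoprotein, at 6.68 and 3.12 and Ttr, transthyretin, at 101 and 8.07. Krt18, a keratin of simple epithelia, read 5364 and 6210.2 units at 72 h and 238, 554 and 217 at 8 h and rose by 4.24 ± 0.36 (adjusted p = 1.95e-06). Krt8, with which it forms filaments, read 5907 and 5969.7 units at 72 h and 505, 1179 and 1051 at 8 h and rose by 2.80 ± 0.30 (adjusted p = 1.53e-05). Plat, tissue plasminogen activator of parietal endoderm, read 918 and 882 units at 72 h and 74.3, 173 and 68.5 at 8 h (3.23 ± 0.37, adjusted p = 2.28e-05), and Pdgfra read 694 and 889 units at 72 h and 97.6, 114 and 199.5 at 8 h (2.59 ± 0.31, adjusted p = 3.69e-05). Dab2, an endocytic adaptor, rose by 2.75 ± 0.67 (adjusted p = 0.00808), a call lost without 72 h array 2 (adjusted p = 0.0875). Apoe, an apolipoprotein, went against the list with 2328 and 2802 units at 72 h and 7612, 6667 and 8589 at 8 h (-1.57 ± 0.16, adjusted p = 8.01e-06). Keratins, Plat and Pdgfra are also made by other cell types. The rises numbered 11 or 7 without 72 h array 1 or 2, and 9 rose in the knockout.

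Summed over 13 markers of extraembryonic endoderm, the signal was 28426 and 31070 units at 72 h, against 5689, 11451 and 9387 units at 8 h, and 10 of the 13 rose. The sum is weighted to bright basement membrane genes, such as Col4a1 at 11339 and 8864 units at 72 h. Hnf4a, a transcription factor, read 92.1 and 76.0 units at 72 h. The summed signal of 10 ES markers was 101991 and 95464 units at 72 h and 119704, 120473 and 121235 at 8 h. Neural markers summed to 1322 and 1338 units at 72 h and 1531, 1154 and 956 at 8 h, and mesoderm markers to 212 and 282 at 72 h and 195, 164 and 167 at 8 h. Trophectoderm markers summed to 1157 and 939.6 units at 72 h and 277, 401 and 289.5 at 8 h, and 3 of 4 tested rose. Of these 4, Gata3, Krt7 and Hand1 were tested only through 72 h arrays, so that count does not support a rise of the set. Foxa2 among the endoderm markers also was. Over all genes tested 14.1% were called higher. The part of these cell types in the results was not tested.

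Of 21 neural progenitor and patterning genes with a probe set 12 were tested, and 2 rose and 2 fell (median 0.23), a share of rises near the 14.1% of all genes tested. With 72 h array 1 left out 1 rose and 0 fell, with 72 h array 2 left out 1 rose and 1 fell, and without an 8 h array 1 or 2 rose and 1 or 2 fell. Irx3, a homeobox gene of neural and other tissues, read 410.2 and 408 units at 72 h and 42.2, 69 and 23.6 at 8 h (2.88 ± 0.32, adjusted p = 2.08e-05), while Pax6 differed by 0.18 and Sox1 by 1.20 without a call. Irx3 was tested only through 72 h arrays, and without it 1 of 11 rose. Of 15 primitive streak and mesoderm genes with a probe set 8 were tested, and 4 rose (median 1.03). Without Foxf1, Hand1, Msgn1 and Meox1, which were tested only through 72 h arrays, 2 of 4 rose. Meox1 read 208 and 342 units at 72 h and 61.8, 58.3 and 9.59 at 8 h (2.24 ± 0.32, adjusted p = 1.70e-04), and Foxf1 rose by 1.38. Of 14 trophectoderm genes with a probe set 10 were tested, and 4 rose and 0 fell (median 1.16). Without Gata3, Hand1 and Krt7, which were tested only through 72 h arrays, 2 of 7 rose. Krt7 read 229 and 196 units at 72 h and 50.4, 51.4 and 8.93 at 8 h (2.06 ± 0.25, adjusted p = 3.53e-05), and Gata3 read 159 and 118 units at 72 h from all 8 h arrays at the floor (at least 1.45). Eomes, listed in 3 of these lists, read 551 and 431 units at 72 h and 103, 208 and 164 at 8 h (1.68 ± 0.29, adjusted p = 7.53e-04). The trophectoderm rises numbered 1 and 2 without 72 h array 1 and 2, and 1 in the knockout. Among germ cell genes 5 of 12 tested, of 15 with a probe set, rose (median 0.71), including Rec8, the meiotic cohesin, with 792 and 604 units at 72 h and 200.3, 159 and 225 at 8 h (1.84 ± 0.23, adjusted p = 4.72e-05). That count was 2 without either 72 h array or without 8 h array 3.

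Actin and smooth muscle genes rose in wild-type cells after 8 h. From 8 to 72 h 16 of 23 rose and 0 fell (median 1.26), and 13 of the rises were late. Without Tagln, Cnn1 and Myl9, which were tested only through 72 h arrays, 13 of 20 rose. At 8 h 0 had been called. Acta2, smooth muscle actin, read 1859 and 3757 units at 72 h and 40.9, 229 and 173 at 8 h (4.39 ± 0.46, adjusted p = 1.18e-05). It is in no class, since its 8 h difference of -0.60 was over 0.5 in size with no call. Tpm1, a tropomyosin that stabilises actin filaments, read 5640.4 and 6896 units at 72 h and 1214, 979 and 722 at 8 h (2.71 ± 0.26, adjusted p = 5.34e-06). Tpm2, another, read 1952 and 1770.2 units at 72 h and 326, 307 and 239.7 at 8 h (2.69 ± 0.20, adjusted p = 5.67e-07), and neither gene's groups overlapped. Cald1, caldesmon, read 5702 and 5398 units at 72 h and 562, 526 and 702 at 8 h (3.23 ± 0.18, adjusted p = 6.75e-08), and Cnn1, calponin, read 193 and 221 units at 72 h with all 8 h arrays at the floor (at least 2.05). Actn4, Tagln2 and Vim were not called, at 0.00, 0.10 and 0.46. In the knockout 6 of the 23 rose and 2 fell, with a median of 0.03. Without 72 h array 1 or 2 the wild-type rises numbered 9 or 11.

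Collagens of mesenchyme stood higher on 1 of the 2 arrays at 72 h. The labels name no feeder cells. Col1a1 read 76.8 units on 72 h array 1 and 302 on array 2, against 5.28, 12.5 and 6.66 at 8 h, and Dcn read 24.2 and 209.6 units at 72 h and 13.9, 35.5 and 8.06 at 8 h. Markers of fibroblast feeder cells summed to 497 and 1474 units at 72 h, against 592, 444 and 686 at 8 h, and Postn and Prrx1 were at the floor on all 5 arrays. Without Thy1 the sum of the other 7 was 397 and 1395 units at 72 h, against 181, 274 and 236 at 8 h. Tagln and Acta2 were high on both 72 h arrays, and the part of such cells in the actin values was not tested. Of 14 genes of the longer feeder list with a probe set 5 were tested, and 2 rose and 1 fell, Thy1 with 99.8 and 78.5 units at 72 h and 411, 170.2 and 449.6 at 8 h (-1.83 ± 0.39, adjusted p = 0.00352). Of 10 blood and endothelial markers with a probe set 2 were tested and neither was called, with a list median of -0.21.

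The promoters of Myl9 and Acta1 held a CArG box, the element bound by serum response factor. They are shown because both genes encode contractile proteins and both moved further in wild-type than in knockout cells, as the next paragraph gives. CArG was chosen after the values were seen, and was searched by name on both strands. The Myl9 window is chr2:156775214-156775463, plus strand, with the element 161 to 152 bases before the start, and the Acta1 window is chr8:123894776-123895025, minus strand, with it 73 to 64 bases before the start, again from RefSeq's GRCm38.p6 record.
Myl9: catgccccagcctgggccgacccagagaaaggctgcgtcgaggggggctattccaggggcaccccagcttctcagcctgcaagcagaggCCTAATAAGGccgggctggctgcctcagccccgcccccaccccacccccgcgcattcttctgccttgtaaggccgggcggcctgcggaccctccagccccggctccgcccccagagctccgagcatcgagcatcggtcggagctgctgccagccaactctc
Acta1: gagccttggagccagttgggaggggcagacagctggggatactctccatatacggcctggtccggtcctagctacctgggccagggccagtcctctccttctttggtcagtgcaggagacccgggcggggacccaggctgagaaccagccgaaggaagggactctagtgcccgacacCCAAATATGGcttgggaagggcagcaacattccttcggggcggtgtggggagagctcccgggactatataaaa
CArG was in 439 of 27025 promoters (1.62%), in 126 of the 9273 of tested genes (1.36%), in 3 of 20 on the actin list (Cnn2, Myl9 and Vcl), in 15 of 975 late rising genes (1.54%) and in 2 of 29 genes of the genotype test with the larger change in wild type. AGATAA, the letters that GATA factors bind, was in 622 of the 9273 (6.71%) and in 76 of the 975 late rising genes (7.79%).

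A test of the difference between genotypes, the 72 h minus 8 h change in wild type minus that in knockout, called 42 of 11388 genes (0.369%), 40 with a positive and 2 (0.0176%) with a negative difference. By size, 36 changed more in wild type and 6 more in knockout, among them Ntn1 and Mt1, which fell further in knockout. The filter favours genes that read high at 72 h, and Tagln, Cnn1, Myl9 and Dlk1 were among those tested only through 72 h arrays. So were Cd44, Gbp2, Gbp2b, Pdzrn3, Zfp503, Prss23, P3h2 and Sh3tc2, with every 8 h array at the floor in both genotypes. The split by size thus describes genes that passed the filter, and it was not counted without such genes. At an unadjusted p of 0.05, 704 genes passed. Of the 42, 38 had risen in wild type and 16 were called in the knockout, and 13 had all 5 knockout arrays at the floor, where the difference depends on the floor. Tagln read 3654 and 4552 units in wild type at 72 h and 67.5 and 128 in knockout (5.46 ± 0.34, adjusted p = 9.38e-07). Acta2 read 1859 and 3757 units in wild type and 158 and 152 in knockout at 72 h (4.41 ± 0.65, adjusted p = 0.0117), and Myl9, a myosin light chain, read 549.6 and 620.3 units in wild type and 57.3 and 65.2 in knockout at 72 h (3.02 ± 0.46, adjusted p = 0.0117). Acta1, skeletal actin, read 581 and 504 units in wild type at 72 h and was at the floor in knockout (2.92 ± 0.44, adjusted p = 0.0117).

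Anxa3, an annexin on the actin list, read 2411 and 3214 units in wild type at 72 h and 214 and 230.5 in knockout (2.18 ± 0.33, adjusted p = 0.0117). Genes outside that list took part as well. Dlk1, an imprinted Notch ligand relative, read 802 and 597 units in wild type and 142 and 106 in knockout at 72 h (2.31 ± 0.36, adjusted p = 0.0117), and Cd44, the hyaluronan receptor, read 178 and 181 units in wild type and was at the floor in knockout (1.84 ± 0.28, adjusted p = 0.0117). Both Dlk1 and Cd44 were tested only through 72 h arrays. Lefty1, a Nodal inhibitor, went the other way. It read 2727 and 2826 units in wild type and 3408 and 3060.4 in knockout at 72 h, and 1716, 2194 and 2172 units in wild type and 771, 576 and 678 in knockout at 8 h (-1.81 ± 0.30, adjusted p = 0.0163). Of the 23 actin and smooth muscle genes tested, 6 were among the 42, and of these Tagln, Cnn1 and Myl9 were tested only through 72 h arrays. Tagln was called in every alternative run. The count was 1 without wild-type 72 h array 2, 9 without wild-type 72 h array 1, 2 without knockout 72 h array 2 and 11 without knockout 72 h array 1. No culture is named as shared between the genotypes.

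**Figure D5:**
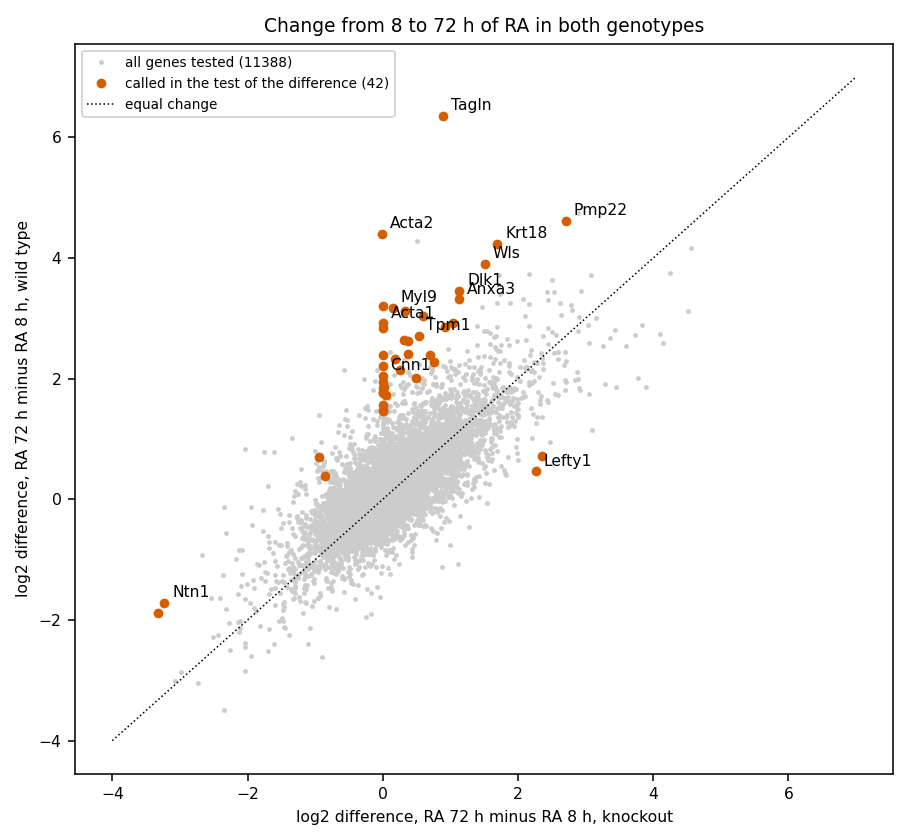
Log2 difference from 8 to 72 h of RA in knockout (x axis) and wild type (y axis), 1 point per gene tested, with genes called in the test of the difference in orange. The dotted line marks equal change. Tagln stands highest at 6.35 in wild type and 0.89 in knockout, and Lefty1 lies below the line at 0.46 in wild type and 2.27 in knockout.

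Cell cycle genes shifted in both directions. Of 17 inhibitors of the cycle 9 rose and 0 fell (median 0.79). Cdkn1a, the p21 inhibitor, read 1591 and 1732 units at 72 h and 518, 705 and 454 at 8 h (1.60 ± 0.20, adjusted p = 6.11e-05). Cdkn2b, the p15 inhibitor, read 296 and 464 units at 72 h and 113, 42.0 and 73.2 at 8 h (2.31 ± 0.33, adjusted p = 1.51e-04). Ccng1 and Ccng2, cyclins of arrest, rose by 1.51 and 2.00, and Cdkn1b was not called at 0.00. Of 24 proliferation genes 9 fell and 1 rose (median -0.30). Ccne1, the cyclin of S phase entry, read 1374 and 2420.0 units at 72 h and 6880.0, 4515 and 6817 at 8 h (-1.71 ± 0.34, adjusted p = 0.002), and Ccnd1 read 874 and 1000.4 units at 72 h and 1989, 2268 and 2706 at 8 h (-1.30 ± 0.23, adjusted p = 7.74e-04). Myc fell, with a log2 difference of -1.42 ± 0.24 (adjusted p = 7.26e-04). The 6 further falls were small: the kinases Cdk1, Aurka and Plk1 at -0.31, -0.34 and -0.37, cyclin A2 (Ccna2) at -0.39, and the replication helicase subunits Mcm2 and Mcm3 at -0.47 and -0.36. All 6 calls were lost without 72 h array 2 (adjusted p between 0.0846 and 0.374), and each was also lost without 1 or more of the other arrays. Mki67, Top2a and Pcna, also measures of cycling cells, were not called, at 0.26, -0.09 and -0.31. The falls numbered 5 and 3 without 72 h array 1 and 2, 4 without 8 h array 2, and 4 with quantile normalization.

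Of 22 Wnt, BMP and FGF genes 3 rose, a share near that of all genes tested, and 5 fell (median -0.06). With 72 h array 1 left out 1 rose and 3 fell. Bmp4, which supports ES self-renewal through Id genes, read 1330.5 and 1028 units at 72 h and 6127, 4135 and 5330.2 at 8 h (-2.13 ± 0.21, adjusted p = 6.16e-06). Dkk1, a Wnt inhibitor, read 597 and 774 units at 72 h and 37.3, 130.0 and 92.1 at 8 h (3.01 ± 0.45, adjusted p = 2.30e-04). Spry4 and Etv4, which the FGF pathway turns on, fell, with log2 differences of -1.39 and -1.11, the first of which was lost without 72 h array 1 (adjusted p = 0.0541). Of 10 Nodal and activin genes 1 rose and 2 fell, 3 and 4 with the replicate block, 1 and 1 without 72 h array 1 and 0 and 2 without 72 h array 2. Of 14 genes of the immediate early and stress response, 2 were called higher, a share near that of all genes tested, and 3 lower. Over all genes tested 14.1% were called higher and 8.18% lower, also the shares to set beside the Nodal and cadherin counts. Jun read 545 and 537 units at 72 h and 173, 73.3 and 156 at 8 h (2.11 ± 0.40, adjusted p = 0.00147), and Egr1 read 202 and 205 units at 72 h and 611, 1037 and 897 at 8 h (-2.03 ± 0.37, adjusted p = 0.00118). Of 22 glycolysis and hypoxia genes 2 rose and 4 fell (median 0.05), against 14.1% and 8.18% of all genes tested. Pdk1, which keeps pyruvate out of the mitochondrion, fell to 1012 and 1400.0 units at 72 h, against 3268, 3322 and 3192 at 8 h (-1.45 ± 0.20, adjusted p = 1.42e-04). The rises and falls of that list numbered 1 and 2 without 72 h array 1, 0 and 2 without 72 h array 2, 1 and 4 without 8 h array 1, 0 and 3 without 8 h array 2, and 4 and 5 with the replicate block. Of 13 epithelial and mesenchymal cadherin genes 3 rose and 1 fell, 0 without 72 h array 2. Cdh2, N-cadherin, read 251 and 609 units at 72 h and 89.2, 76.7 and 92.6 at 8 h (2.19 ± 0.31, adjusted p = 1.61e-04), and Cdh1, E-cadherin, differed by 0.19 without a call.

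Imprinted genes included large rises. Of 16 tested, 8 rose and 1 fell (median 0.91). Without 72 h array 2 the rises numbered 5 and the median was 0.53. Igf2, a fetal growth factor, read 2308 and 2164 units at 72 h and 194, 218 and 113 at 8 h (3.73 ± 0.32, adjusted p = 1.95e-06). Sgce, epsilon-sarcoglycan, read 652 and 1015 units at 72 h and 130.0, 153 and 84.7 at 8 h (2.77 ± 0.38, adjusted p = 1.07e-04). Phlda2, which restrains placental growth, fell to 1553 and 2587 units at 72 h, against 6176, 7015 and 9298 at 8 h (-1.88 ± 0.26, adjusted p = 1.08e-04). Peg3 read 1125 and 4885 units at 72 h and 499, 762 and 396 at 8 h, and Mest read 4185 and 12356 units at 72 h and 2776, 3479.9 and 2245 at 8 h. For both, 72 h array 2 was the higher, and their rises were lost without that array (adjusted p = 0.151 and 0.0936). Meg3 read 72.1, 1930.4 and 81.2 units in control, 11.8, 816 and 16.3 at 8 h and 49.4 and 2018 at 72 h, and the second array stood above the others in each group. Of 11 DNA methylation and oncofetal genes 1 rose, Hmga2, and 3 fell, among them the demethylating enzyme Tet1 at -1.13, a call lost without 72 h array 1 (adjusted p = 0.141).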

How the data were processed

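Transcripts of 18 AB1 mouse ES cell samples were measured, 1 single-colour Affymetrix array each. The authors deposited linear signal intensity per probe set, made with MAS5 per the submitters' processing notes; its version is not given in the sources used here. In the table itself, the mean of each array without its top and bottom 2% was already 500. Each array was rescaled to that level, floored at 50 units and log2 transformed. Gene symbols came from the platform annotation (of 45101 probe sets, 34958 carry 1 symbol, and 932 with more than 1 name no gene here), and the probe set with the highest mean log2 over 18 arrays stood for a gene. Of 18194 genes, 11388 had at least 2 arrays of 100 units and were tested. Arrays carry no count depth: precision is set by the number of arrays and by signal over background, and over all genes the standard error of a log2 difference had a median of 0.22 from 8 to 72 h and 0.19 at 8 h.

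The test was that of limma 3.58.1 (R 4.3.3), with lmFit and an intensity trend in eBayes, in 1 fit of the 16 arrays of the 6 replicated groups, with 10 residual degrees of freedom and no replicate block. P-values are two-sided and Benjamini-Hochberg adjusted over all genes tested in a comparison, with a threshold of 0.05; "±" is a standard error. Nothing names separate cultures, so they reflect only how far these samples differ from each other, possibly for technical reasons. A gene past the threshold is written as called, rose or fell. The script was tested on simulated data.

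Replicate numbers come from the titles, except that the unnumbered titles were numbered in accession order. All 7 pairs of arrays with the same number deviated together from their group means (r between 0.13 and 0.50 across genes), against 2 of 14 pairs with different numbers over 0.1, so a fit with the number as a block is given where it moves a count by over 1.5 times.

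The comparison, the time classes and the gene lists were chosen with earlier results of these data known. Named are the 20 largest rises and falls from 8 to 72 h among called genes without overlap, up to 10 genes per time class and direction, measured list members, the 10 smallest adjusted p-values of the genotype test, and Cyp26a1. The text describes a part of them. Alternatives were other floors, offsets, filters, normalization and probe set rules, the block, fewer groups, exchanged LIF labels, and each array left out. Promoter windows are RefSeq's. The control arrays without LIF entered only where LIF labels were exchanged.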

Additional observations from a re-analysis of the deposited data

Results flagged for a closer look

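In the limma test of the genotype difference, 42 genes changed by different amounts between 8 and 72 h in wild type and in knockout. The 15 given below are those of the 42 that the naming rules cover. Values are the wild-type change minus the knockout change, on the log2 scale of floored signal. Those rules name every measured list member, so the 6 of the 42 on the actin and smooth muscle list were bound to appear. These 6 were Tagln (5.46), Acta2 (4.41), Myl9 (3.02), Tpm1 (2.18), Anxa3 (2.18) and Cnn1 (2.05). Acta1, skeletal actin, differed by 2.92. The others with the larger change in wild type were Krt18 (2.54), a keratin of simple epithelia, Wls (2.40), which escorts Wnt proteins, Dlk1 (2.31), a Notch ligand relative, Pdzrn3 (2.14), a ubiquitin ligase, Gbp2 (1.94), an interferon-induced GTPase, Pmp22 (1.90), a myelin protein, and Cd44 (1.84), the hyaluronan receptor. Lefty1 (-1.81), a Nodal inhibitor, changed more in the knockout. Each genotype had 2 arrays at 72 h. Tagln, Cnn1, Myl9, Dlk1, Cd44, Gbp2 and Pdzrn3 were among those tested only through 72 h arrays. Acta1 read 49.0, 122 and 60.2 units in wild type at 8 h and was at the floor on all knockout arrays in RA. In the alternatives run, Tagln lost its call in 0, Krt18 in 15 and Wls in 13, and the remaining 12 genes in 2 to 7 each. The causes were not tested.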

How the results depend on the processing

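Of the named genes called from 8 to 72 h, 0 turned their sign in the alternatives run. Of 200 such genes, 144 of 191 tested kept the call without 72 h array 1, 139 of 191 without 72 h array 2, 170 without the filter on dim genes, and 176 to 200 in the other alternatives. Quantile normalization moved the share of rises among calls to 54.6%, against 63.3%. The counts that moved by over 1.5 times were these. From 8 to 72 h in wild type, 1087 genes passed with at least 2-fold, and 1185 to 2154 with 1 array left out. At 8 h, 275 passed with the replicate block, 67 without the filter, 42 with wild-type arrays only, 160 with LIF labels exchanged, 13 with the arrays of the 2 groups only, 60 with at least 2-fold, and 58 to 135 with 1 array left out. At 72 h against control these were 1262 with at least 2-fold and 1456 to 2621 with 1 array left out. In the knockout they were 943 and 1011 to 1901. The genotype test called 197 with the floor at 100, 9 with log2 of signal plus 32, 19 with quantile normalization, 125 without the filter, 14 with the filter at 200, 74 without the intensity trend, and 1 to 40 with 1 array left out. Late genes numbered 862 to 1694 with 1 array left out. Continued genes numbered 79 with the block, 13 with wild-type arrays only, 49 with LIF labels exchanged, and 19 to 33 with 1 array left out. Held genes numbered 130 with the block, 32 without the filter, 26 with wild-type arrays only, and 29 to 68 with 1 array left out. Transient genes numbered 47 with the block, 22 with the floor at 100, 3 with wild-type arrays only, 23 with LIF labels exchanged, and 5 to 22 with 1 array left out. Leaving arrays or groups out fits fewer samples, and the cause of the other moves was not tested. The replicate block, under which 3566 genes passed from 8 to 72 h, removed 0 of the 200 calls and added 37 named genes, among them Pou5f1, Rara, Rarg and Tbx3. Signal near the floor limits what can be seen: a gene at 50 units in a group gives a bound and no size.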
